A study of Mus musculus with 6 samples.

Results

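The response of the uterine luminal layer to recombinant Lif (rLif) was described by setting 1 library, labelled eKO + rLif, against 1 other, labelled eKO. All genes with 10 or more read counts summed over the 3 luminal libraries were taken, which were 15694 of the 23420 genes in the deposited table. The other 7726 genes lay under this minimum. A rare gene could reach it through 1 library alone, and its call then follows in part from the minimum. The luminal layer is the epithelial sheet that lines the uterine cavity and to which a blastocyst attaches. It was cut from frozen sections by laser microdissection on the evening of day 4 of pregnancy (8 pm), ahead of attachment. Mice of every group carried the floxed *Lif* allele on both chromosomes (Lif-floxed/floxed). The eKO mice also carried 1 copy of Ltf-Cre, whose lactoferrin promoter drives recombination in the uterine epithelium, so that the stroma keeps the gene. Mice labelled eKO + rLif received 20 µg of rLif per head into the peritoneum at 10 am and at 6 pm, which was 10 h and 2 h before dissection. The mice labelled control (Lif-floxed/floxed without Cre) and eKO were labelled as given PBS. Because both injections preceded a single collection, the responses to the first and to the second cannot be told apart.

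RNA of 3 independent samples was pooled for each luminal library by the authors, so every group was 1 library. The differences below therefore have no replicate check and no p-value, and they compare these libraries rather than conditions. In a bulk library, fewer cells of a type and less RNA per cell cannot be told apart.

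Lif is a cytokine of the interleukin-6 family. It binds the receptor Lifr, which pairs with the shared subunit gp130, and Jak kinases attached to the pair then phosphorylate the transcription factor Stat3. Stat3 moves to the nucleus and switches on target genes, among them *Socs3*, whose product blocks the receptor again. In mice the uterine glands release Lif shortly before implantation, and the luminal epithelium responds to it.

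Total counts were between 23850565 and 28460465 in the luminal libraries, and levels are given as CPM, counts scaled to a common library size after TMM scaling. For each gene the ratio of the libraries labelled eKO + rLif and eKO was taken on the log2 scale, with an exact Clopper-Pearson 95% interval that covers counting error only. "Higher" and "lower" refer to the library labelled eKO + rLif set against the one labelled eKO, and a gene was called when its whole interval was above a log2 ratio of 1 or below -1. For a gene at 0 counts in 1 library, the fold was taken against 3 counts there and is a lower bound, whereas calling used the interval, whose end lies nearer to 0. Counts of a gene are listed in the order of the libraries labelled control, eKO and eKO + rLif. Of the genes named below, *Bysl*, *Ccnd1*, *Cebpd*, *Cldn3*, *Ctsb*, *Egf*, *Erbb2*, *Fosl1*, *Gli1*, *Gstm5*, *Il1a*, *Il11ra1*, *Jak1*, *Jak3*, *Me1*, *Msx1*, *Muc4*, *Muc20*, *Nop56*, *Pias3*, *Ppp1r1b*, *Prdx1*, *Txnip* and *Wnt7b* have exons that overlap another gene in the table, so their counts are uncertain.

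The 2 libraries differed widely. Called genes numbered 2456 of 15694 (15.6%), with 1236 higher (7.88%) and 1220 lower (7.77%), and 13238 were not called. Counts of list members below are to be read beside these shares. The higher genes reached further from 0 than the lower genes: the interval lay wholly beyond a log2 ratio of 3 for 208 higher and 65 lower genes, and beyond 5 for 61 and 3. They also took more of the libraries. Genes called higher held 3.88% of all counts in the library labelled eKO, against 17.6% in that labelled eKO + rLif and 14.5% in that labelled control. Genes called lower held 11.9%, 3.40% and 3.59% of the counts, respectively. With genes split into 3 classes of equal size by mean CPM, 425 of the most abundant class were higher and 237 lower. Of the rarest class 494 were higher and 649 lower. The mean was over all 3 luminal libraries, so the classes rest in part on the values compared. Genes high in the library labelled control were also moved towards the abundant class. The median log2 ratio of all genes was -0.01, with quartiles of -0.53 and 0.48. Just inside the limit lay *Bysl*, with an interval bound of 1.0003, and *Fam101b*, with -1.0022. Just outside it lay *Basp1* and *Enpp5*, with bounds of 0.99996 and -0.99984.

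**Figure D1:**
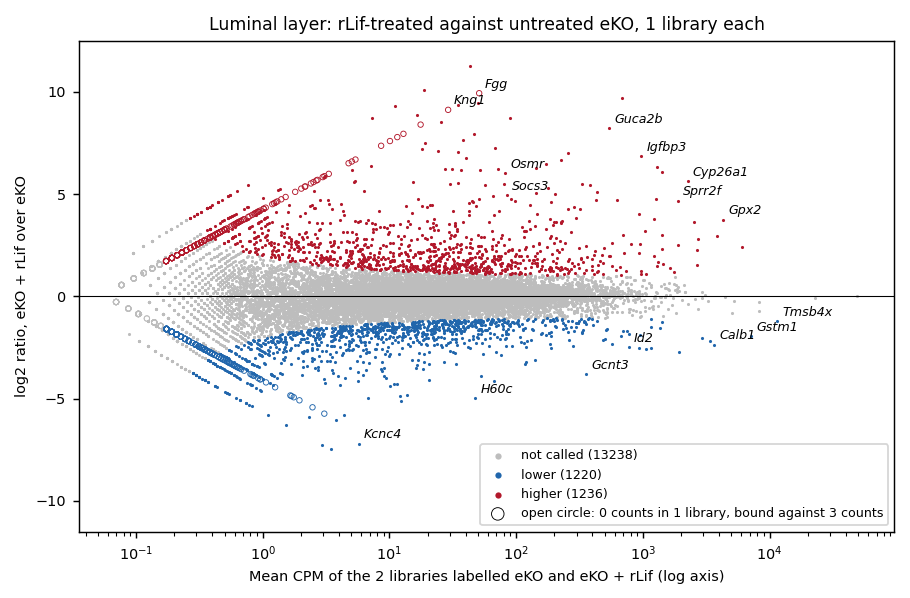
Log2 ratio of the library labelled eKO + rLif over the one labelled eKO against the mean CPM of both (log axis), 1 point per gene; red genes were called higher, blue lower, and open circles mark bounds for genes with 0 counts in 1 library. The 1236 higher genes reach a log2 ratio of 11.28 (*Atp13a4*) and include abundant genes such as *Gpx2* and *Cyp26a1*, while the 1220 lower genes lie closer to 0.

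The targeted gene was read first. *Lif* (chromosome 11) had 0, 28 and 0 counts and was called lower, at least 8.46-fold lower. Its only counts were thus in the library whose label names the deletion. For this reason the library is spoken of as the one labelled eKO, and each direction below rests on that label. The glands release Lif at this stage, so few counts in a luminal layer cannot show whether the gene was deleted. The loxP sites flank exon 3 and part of exon 4, so whole-gene counts also cover exons that are not deleted. After these values were seen, genes with at least 500 counts in every blastocyst library (6240 genes) were searched for those with at least 10 counts in 1 luminal library and at most 2 in each of the others. The library labelled eKO held 12 such genes, the one labelled control 3 and the one labelled eKO + rLif 2. *Lif* was among the 12, together with *Dppa5a* (0, 55 and 0 counts) and *Cdx2* (0, 15 and 0), genes of the early embryo. The search asked for few counts in the library labelled eKO + rLif, so lower calls among the 12 follow from it. Of 14 blastocyst markers, 8 were analysed, with 1 called higher, 4 lower and a median log2 ratio of -2.26. Besides *Dppa5a* and *Cdx2* the lower ones were *Dppa3* (2, 39 and 7 counts) and *Sox2* (8, 19 and 0), and *Tfap2c* was higher (124, 7 and 107). *Pou5f1*, *Nanog* and *Zfp42*, which define the inner cell mass, were under the minimum and had 0 counts in all 3 luminal libraries. The part of embryo RNA in the *Lif* counts was not tested.

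Markers of the tissue and of its neighbours were then compared. All 14 luminal epithelial markers were measured, at a summed 12154, 18764 and 11338 CPM, with 3 called higher and 4 lower. The 16 stromal markers summed to 1263, 1822 and 1309.9 CPM, none was called, and their median log2 ratio was -0.52. Smooth muscle markers (9 genes) summed to 88.5, 72.5 and 40.1 CPM with 2 called lower, and immune markers (16) to 2057, 2230.3 and 2676 with 1 lower. Of 9 endothelial markers, *Tek* (124, 198 and 897 counts) and *Flt1* (158, 104 and 270) were called higher, while *Pecam1*, which marks all endothelium, had 332, 305 and 275. Of 9 analysed glandular markers, summing to 19.3, 20.2 and 38.4 CPM, 3 were called higher and 1, *Lif*, lower. *Foxa2*, the transcription factor of the glands, had 3, 0 and 10 counts and reached the minimum only through the library labelled eKO + rLif. The gland proteases *Prss28* and *Prss29* had 55, 13 and 142 and 123, 111 and 315. Transcripts listed as stromal and immune markers were thus also counted, and summed lists do not show which cells held them. The part of stroma and immune cells in the differences below was not tested. Among liver markers *Alb* was under the minimum, and among red cell markers *Alas2* was lower (23, 112 and 30 counts).

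Transcripts for several receptors of the Lif family were higher. Of 18 analysed members of the receptor and Jak-Stat list, 6 were called higher and 1 lower, with a median log2 ratio of 0.29. *Osmr*, the receptor for oncostatin M and a partner of gp130, lies on chromosome 15 between 6813577 and 6874313 and had 1413, 71 and 4178 counts (log2 ratio 6.02, interval 5.68 to 6.38). *Lifr*, its neighbour on chromosome 15 between 7129572 and 7197489, had 5362, 1463 and 4554 counts (log2 ratio 1.78, interval 1.69 to 1.87). *Il6ra*, which binds interleukin-6, had 268, 40 and 246 counts (log2 ratio 2.76, interval 2.28 to 3.28), so these ligand-binding chains were each above the library labelled eKO. *Il11ra1*, which binds interleukin-11, was not called (1099, 1368 and 1379 counts, log2 ratio 0.15), and *Cntfr*, a receptor for ciliary neurotrophic factor, had 0 counts in every luminal library. For *Il6st*, which encodes the shared subunit gp130, the libraries had 661, 826 and 1047 counts (log2 ratio 0.48, interval 0.35 to 0.62), and it was not called. *Il31ra* was called higher with 12 counts in the library labelled eKO + rLif and 0 in both others. It reached the minimum through that library alone.

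Downstream, *Stat3* had 5758, 3213 and 7823 counts (log2 ratio 1.43, interval 1.37 to 1.49). *Stat5a* and *Stat2* were not called, with log2 ratios of -0.84 and -0.39. Kinases went separate ways: *Jak2* was lower, with 1960, 7134 and 1874 counts (log2 ratio -1.79, interval -1.86 to -1.71), while *Jak1* (log2 ratio 1.00) and *Tyk2* (0.18) were not called. *Jak3* was called higher (161, 57 and 209 counts, log2 ratio 2.02). Among 6 analysed ligands of gp130, *Clcf1* was higher (1113, 179 and 555 counts, log2 ratio 1.77). *Ctf1*, which encodes cardiotrophin-1, was lower (1758, 5727 and 1705 counts, log2 ratio -1.61), and *Il6* was not called (2, 240 and 106 counts).

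Of 13 feedback inhibitors of this pathway, 2 were called higher and 1 lower, and the median log2 ratio was 0.60. *Socs3* (on chromosome 11 between 117966087 and 117969366) had 1482, 153 and 4242 counts, or 5.33 and 163 CPM in the libraries labelled eKO and eKO + rLif (log2 ratio 4.93, interval 4.70 to 5.18). *Socs2* had 4539, 1627 and 8901 counts (log2 ratio 2.59, interval 2.52 to 2.67). For both genes the count in the library labelled eKO + rLif was also above the one labelled control. *Cish* (0.57), *Socs1* (0.01) and the phosphatases *Ptpn1* (0.59) and *Ptpn2* (0.93) had log2 ratios under 1 and were not called. *Pias3*, an inhibitor of Stat3, was lower (467, 729 and 286 counts).

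Of 31 regulators listed as Stat3 targets, 15 were called higher, 2 lower and 14 were not called, with a median log2 ratio of 1.00, against -0.01 over all genes. *Bcl3*, a nuclear partner of NF-κB, had 1485, 122 and 3336 counts (log2 ratio 4.91, interval 4.65 to 5.19). The basic leucine zipper factors were next: *Nfil3* had 12351, 1125 and 14570 counts (log2 ratio 3.84), *Cebpb* had 20279, 6636 and 35920 (log2 ratio 2.58), and *Cebpd* had 22069, 4754 and 59120 (log2 ratio 3.78). Smaller differences were seen for *Junb* (1.99), the cytokine receptor *Il4ra* (1.93), the mRNA decay factor *Zfp36* (1.85), the adhesion molecule *Icam1* (1.51) and the survival gene *Mcl1* (1.06). Several well-known members were not called, among them *Myc* (4626, 1683 and 3056 counts, log2 ratio 1.00), *Bcl2l1* (0.03), *Klf4* (0.73) and *Ccnd1* (-0.92). The lower members were *Sgk1*, a kinase that activates the epithelial sodium channel, with 2961, 5146 and 1006 counts (log2 ratio -2.21, interval -2.31 to -2.12), and *Hif1a*, the oxygen-regulated factor, with 4950, 13895 and 5270 (log2 ratio -1.26, interval -1.30 to -1.21).

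**Figure D2:**
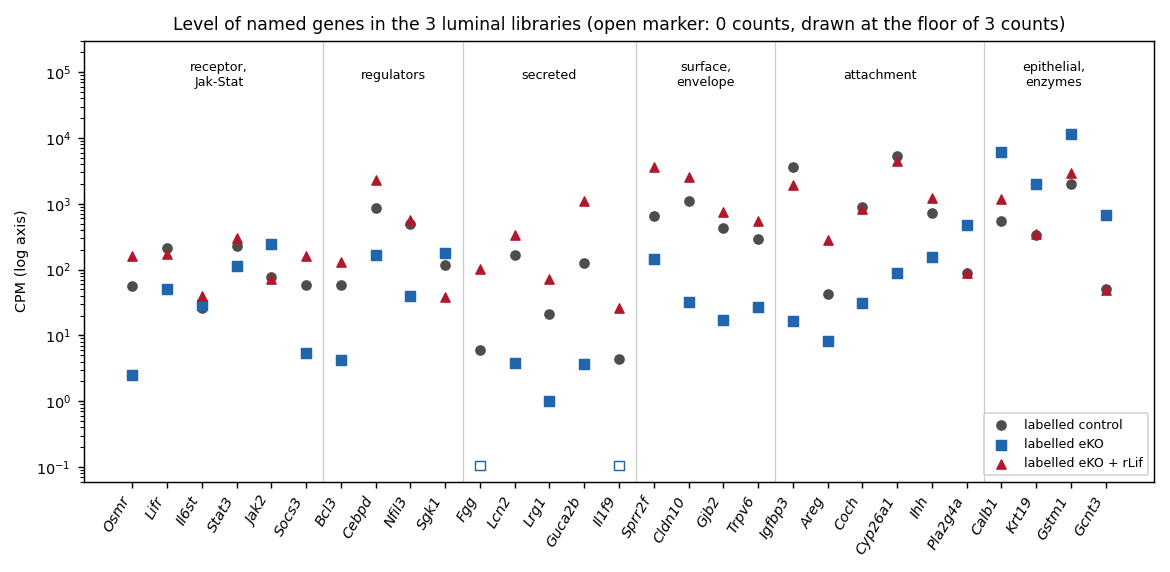
CPM (log axis) of 29 named genes in the libraries labelled control (circles), eKO (squares) and eKO + rLif (triangles), grouped by role; open markers are 0 counts drawn at the floor of 3 counts. The triangles lie above the squares for genes such as *Osmr*, *Socs3* and *Igfbp3* and below them for *Jak2*, *Sgk1*, *Calb1* and *Gcnt3*.

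Stat factors bind palindromes of the form TTCNNNGAA, and TTCCNGGAA is the closer form. RefSeq promoter windows (GRCm38.p6, 250 bases before to 50 after the start) were searched for these letters. Each motif reads the same on both strands and the second is contained in the first. TTCNNNGAA was found in 8.30% of all 32851 windows and TTCCNGGAA in 1.15%. For the 15501 windows of analysed genes the shares were 7.19% and 1.30%. Of 34 genes of the pathway and of the gene lists that were looked up, 28 had a window, 9 of these held TTCNNNGAA and 6 held TTCCNGGAA. A gene was counted when any of its windows held a match, so these counts cannot be set against the shares of single windows. The genes were also looked up with their values known, so the counts are descriptions only. Stretches before the start of genes called higher follow, read 5′ to 3′ on the strand of the gene with each match in capitals, because they place the letters beside members of several roles.
*Socs3*, chr11:117969472-117969560, minus strand: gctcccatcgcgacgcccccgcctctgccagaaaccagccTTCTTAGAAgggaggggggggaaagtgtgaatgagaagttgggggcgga
*Fga*, chr3:83025903-83025967, plus strand: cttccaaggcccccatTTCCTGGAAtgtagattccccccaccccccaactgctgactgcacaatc
*Icam1*, chr9:21015858-21015939, plus strand: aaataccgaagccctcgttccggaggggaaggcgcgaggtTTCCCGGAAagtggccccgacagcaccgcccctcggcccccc
*Steap4*, chr5:7960316-7960404, plus strand: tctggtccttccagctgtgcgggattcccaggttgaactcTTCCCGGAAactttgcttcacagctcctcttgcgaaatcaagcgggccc
*Guca2b*, chr4:119658995-119659083, minus strand: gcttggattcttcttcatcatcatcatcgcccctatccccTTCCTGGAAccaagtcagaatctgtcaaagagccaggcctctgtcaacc
*Trpv6*, chr6:41636533-41636621, minus strand: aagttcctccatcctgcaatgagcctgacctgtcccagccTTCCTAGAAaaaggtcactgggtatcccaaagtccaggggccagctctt
*Aldoc*, chr11:78324034-78324163, plus strand: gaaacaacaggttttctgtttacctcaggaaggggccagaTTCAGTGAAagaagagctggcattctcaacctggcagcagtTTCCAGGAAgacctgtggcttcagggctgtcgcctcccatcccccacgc
The first base of the match stood 154 bases before the start in *Socs3*, 234 in *Fga*, 42 in *Icam1*, 116 in *Steap4*, 98 in *Guca2b* and 176 in *Trpv6*, and *Aldoc* held 2 matches, at 124 and 83. The windows of *Osmr*, *Bcl3*, *Lcn2* and *Igfbp3*, among the largest differences in their lists, did not contain these letters. A match is not a binding site. Only 76.1% of genes called higher and 76.6% of those called lower had a window, so the shares of the called sets were not compared.

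Acute phase genes, which encode plasma proteins that the liver releases during inflammation under interleukin-6 control, were among the largest differences. Of 24 analysed members, 11 were called higher and 1 lower, and the median log2 ratio was 1.07. *Fgg*, the fibrinogen gamma chain (on chromosome 3 between 83007896 and 83015049), had 153, 0 and 2661 counts, at least 978-fold higher. *Fga*, the alpha chain, had 197, 1 and 979 counts (log2 ratio 10.08, interval 7.60 to 15.38), and the kininogen genes *Kng1* and *Kng2*, similar copies between which reads could be split, had 485, 0 and 1514 and 325, 0 and 448 counts, at least 557-fold higher and at least 165-fold higher. The iron-chelator carrier *Lcn2* followed with 4200, 110 and 8824 counts (log2 ratio 6.47, interval 6.20 to 6.75). *Lrg1* had 530, 29 and 1901 (log2 ratio 6.18, interval 5.65 to 6.76) and *Orm1*, one of a family of orosomucoids, 104, 37 and 1530 (log2 ratio 5.51, interval 5.04 to 6.02). Haptoglobin (*Hp*) was rare in all libraries, with 118, 3 and 160 counts (log2 ratio 5.88, interval 4.31 to 8.17). For *Fgg*, *Kng1*, *Lcn2*, *Lrg1* and *Orm1* the library labelled eKO + rLif also exceeded the one labelled control. Other members of the class were not called: *Saa1* and *Saa3* had 1, 11 and 3 and 8, 0 and 2 counts, and the metallothioneins *Mt1* and *Mt2* 35972, 85531 and 82506 and 6985, 20146 and 12497. The lower member was *Serpina1b* (40, 872 and 76 counts, log2 ratio -3.38), 1 of several near-identical antitrypsin genes, whose counts are uncertain. Of 12 liver markers, 8 were under the minimum, *Alb* among them, none of the other 4 was called higher, and *Serpina1c*, an antitrypsin copy, was lower (8, 197 and 1 counts, log2 ratio -7.48, interval -12.79 to -4.99).

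In the complement and coagulation list, 9 of 29 members were called higher and 2 lower (median log2 ratio 0.68). *C3*, the central complement component, had 687, 50 and 515 counts (log2 ratio 3.51, interval 3.09 to 3.96), and regulators that restrain complement were higher with it. *Serping1*, the C1 inhibitor, had 25571, 4661 and 25473 counts (log2 ratio 2.59) and the membrane protector *Cd55* 10542, 2922 and 7058 (log2 ratio 1.41). *Thbd*, the anticoagulant thrombomodulin, had 635, 185 and 983 (log2 ratio 2.55). Tissue factor (*F3*) stood apart, with 20138, 3979 and 4016 counts: it was not called (log2 ratio 0.15, interval 0.09 to 0.22) and both compared libraries lay below the one labelled control. *C2*, a complement protease, was lower (162, 359 and 127 counts, log2 ratio -1.36).

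Genes listed for antimicrobial and mucosal defence went both ways, with 6 of 21 members called higher, 3 lower and a median of -0.08. *Guca2b*, which encodes the peptide uroguanylin, had 3146, 104 and 28184 counts, 3.62 and 1082 CPM in the libraries labelled eKO and eKO + rLif (log2 ratio 8.22, interval 7.95 to 8.52). *Defb1*, a beta-defensin, had 264, 3 and 1807 counts (log2 ratio 9.38, interval 7.83 to 11.65), and the chitinase-like *Chi3l1* had 1529, 11 and 2427 (log2 ratio 7.93, interval 7.09 to 8.93). Lower members were *Lyz1* (664, 3430 and 1283 counts, log2 ratio -1.28), *Nod2* (21, 43 and 4, log2 ratio -3.28) and the neutrophil gene *S100a9* (72, 16 and 1, log2 ratio -3.86, interval -9.25 to -1.17). Lactoferrin (*Ltf*), whose promoter drives the Cre used here, was not called, with 2745, 992 and 851 counts (log2 ratio -0.08).

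Genes of the cornified envelope, the protein shell of squamous cells, formed the list with the highest median, 2.19, and 9 of its 17 analysed members were called higher and none lower. *Sprr2f* and *Sprr2g*, small proline-rich proteins, were abundant, with 16676, 4089 and 94769 and 9957, 2549 and 63761 counts (log2 ratios 4.68 and 4.79). *Sprr2e* had 50, 11 and 1967 counts (log2 ratio 7.62, interval 6.78 to 8.63) and *Sprr2b* 614, 4 and 1326 (log2 ratio 8.51, interval 7.15 to 10.39). These are near-identical family members among which reads could be split, so the division between them is uncertain. All 4 stood above the library labelled control as well. *Tmprss11d*, an airway-type serine protease, had 177, 12 and 4650 counts (log2 ratio 8.74, interval 7.93 to 9.69), and transglutaminase 1 (*Tgm1*), which cross-links the envelope, 17, 6 and 122 (log2 ratio 4.49, interval 3.32 to 5.96). The structural proteins *Evpl* (-0.52), *Ppl* (-0.98) and *Lor* (-0.51) were not called. Another 16 listed genes were under the minimum, so that the list's median covers only the part of it that was expressed.

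**Figure D3:**
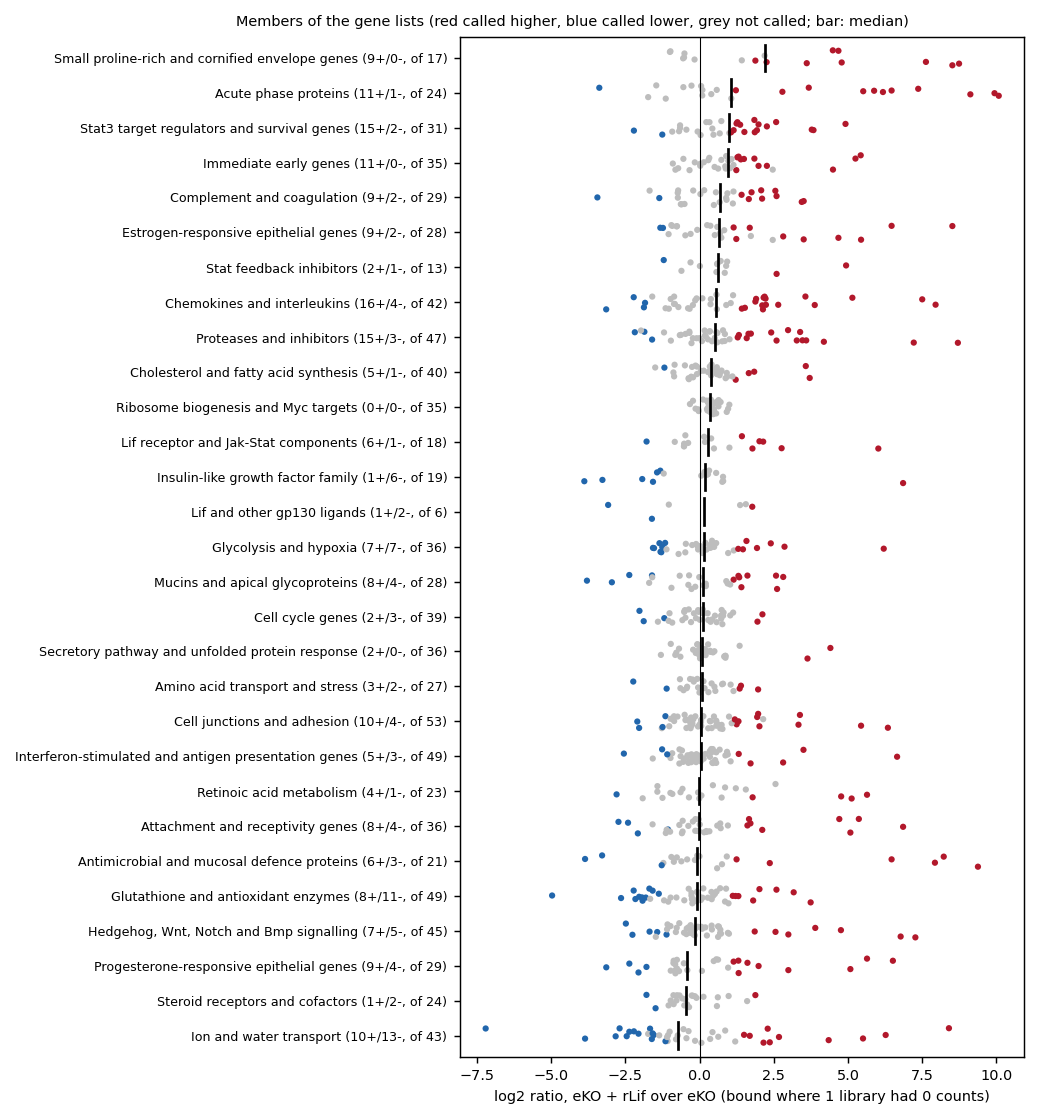
Log2 ratio (eKO + rLif over eKO) of every analysed member of 29 gene lists, ordered by the list median (black bar), with called genes in red (higher) and blue (lower). The small proline-rich list has the highest median, 2.19, and the ion and water transport list the lowest, -0.74.

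Of 36 analysed genes known for attachment and receptivity, 8 were called higher, 4 lower and 24 were not called, and the median log2 ratio was -0.02, near that of all genes. *Igfbp3*, which binds insulin-like growth factors, lies on chromosome 11 between 7206091 and 7213923 and had 90135, 476 and 49934 counts, a 116-fold difference (log2 ratio 6.85, interval 6.72 to 6.99). *Coch*, a secreted matrix protein of the luminal epithelium, had 22736, 902 and 21336 counts (log2 ratio 4.71, interval 4.61 to 4.80), and the lipoxygenase *Alox15* 46615, 17996 and 51721 (log2 ratio 1.66). Ligands of the EGF receptor family were among those higher: *Areg* had 1067, 236 and 7232 counts (log2 ratio 5.08), *Ereg* 26, 0 and 112 (at least 41.2-fold higher), *Hbegf* 1134, 457 and 1789 (log2 ratio 2.11) and *Btc* 138, 65 and 180 (log2 ratio 1.61). Of the receptors, *Erbb3* was higher (1.71) while *Egfr* (-0.60) and *Erbb2* (-0.08) were not called. *Egf* itself was lower, with 4, 22 and 0 counts (at least 6.65-fold lower), and reached the minimum only through the library labelled eKO. *Pla2g4a*, the phospholipase that frees arachidonic acid, was lower with 2245, 13689 and 2333 counts (log2 ratio -2.41, interval -2.48 to -2.35), the lysophosphatidic acid receptor *Lpar3* was lower with 8033, 14589 and 6327 (log2 ratio -1.06, interval -1.11 to -1.02), and *Ptgs2*, cyclooxygenase-2, was not called with 150, 294 and 335 (log2 ratio 0.33, interval 0.10 to 0.56). *Msx1*, a homeobox gene of the receptive epithelium, had 9439, 36545 and 16640 counts (log2 ratio -0.99, interval -1.02 to -0.97), so its interval crossed the limit.

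In the insulin-like growth factor list, *Igfbp3* was the 1 member of 19 called higher and 6 were lower, although the median log2 ratio was 0.19. *Stc1*, a secreted glycoprotein that blocks the protease Pappa, had 161, 2865 and 176 counts (log2 ratio -3.88, interval -4.11 to -3.66). *Igf1* had 2697, 9625 and 3487 (log2 ratio -1.32), its adaptor *Irs1* 329, 1302 and 437 (log2 ratio -1.43), *Igfbp6* 897, 3685 and 1125 (log2 ratio -1.57) and *Pappa* 72, 160 and 38 (log2 ratio -1.93). *Igf1* is mostly a stromal transcript in the uterus, and the stromal markers had a median of -0.52, whose part in these values was not tested.

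Of 23 genes of retinoic acid metabolism, 4 were called higher and 1 lower, with a median log2 ratio of -0.01. *Cyp26a1*, which degrades retinoic acid and lies on chromosome 19 between 37697808 and 37701536, had 136285, 2545 and 115011 counts, 88.6 and 4417 CPM (log2 ratio 5.64, interval 5.58 to 5.70). *Lrat*, which stores retinol as ester, had 4754, 694 and 21896 counts (log2 ratio 5.12, interval 5.01 to 5.23), *Rdh12* 609, 34 and 840 (log2 ratio 4.77, interval 4.27 to 5.31) and *Cyp26c1* 989, 526 and 1644 (log2 ratio 1.79). Of the 3 *Cyp26* paralogs, *Cyp26b1* alone was lower, with 2, 23 and 0 counts, at least 6.95-fold lower. It reached the minimum only through the library labelled eKO, so its call follows in part from the minimum. The synthesis enzymes *Aldh1a2* (-0.58) and *Rdh10* (-0.64) and the receptor *Rara* (-0.01) were not called.

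Among progesterone-responsive epithelial genes, 9 of 29 were called higher and 4 lower, with a median of -0.41. Besides *Areg* and *Cyp26a1*, *Ihh*, the hedgehog ligand that the epithelium sends to the stroma, had 18313, 4493 and 32353 counts (log2 ratio 2.99, interval 2.94 to 3.04), *Irg1*, an itaconate-producing enzyme, 26657, 14255 and 51211 (log2 ratio 1.99), and the bile acid transporter *Slc10a2* 211, 0 and 248 (at least 91.2-fold higher). *Gpx3*, a secreted peroxidase, was called higher with 25746, 240 and 538 counts (log2 ratio 1.31), far under its level in the library labelled control. The lower members were abundant. *Calb1*, the calcium buffer calbindin, had 13579, 175456 and 30828 counts (log2 ratio -2.37, interval -2.38 to -2.35), *Fxyd4*, a regulator of the sodium pump, 11039, 136115 and 29620 (log2 ratio -2.06, interval -2.08 to -2.04), and the transcription factor *Gata2* 2356, 8115 and 2127 (log2 ratio -1.79). The receptors themselves were not called: *Pgr* had 594, 1736 and 928 counts (log2 ratio -0.76, interval -0.88 to -0.65) and *Esr1* 1781, 2172 and 1411 (log2 ratio -0.48, interval -0.58 to -0.38). Of 24 steroid receptor and cofactor genes, 1 was higher (4.17%) and 2 were lower (8.33%), with a median of -0.45. Over all analysed genes the shares were 7.88% and 7.77%.

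The estrogen-responsive list had 9 of 28 members higher and 2 lower (median 0.64). They included *Lcn2*, *C3* and *Sprr2f*, given above, as well as *Muc4*, a membrane mucin (304, 88 and 562 counts, log2 ratio 2.82), and *Gjb2*, connexin 26 (10938, 492 and 19342 counts, log2 ratio 5.44, interval 5.31 to 5.57). Classic members such as *Greb1* (106, 36 and 58 counts) and *Wnt4* (156, 177 and 130) were not called.

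In the Hedgehog, Wnt, Notch and Bmp list, 7 of 45 were higher (15.6%) and 5 lower (11.1%), with a median of -0.15. Over all analysed genes the shares were 7.88% and 7.77%. *Lgr5*, an R-spondin receptor known from stem cells, had 2505, 25 and 3494 counts (log2 ratio 7.27, interval 6.70 to 7.90), and *Sfrp1*, a secreted Wnt inhibitor, 393, 21 and 2081 (log2 ratio 6.77, interval 6.16 to 7.47). *Wnt7b* had 19376, 105 and 2580 counts (log2 ratio 4.76). The related *Lgr4* went the other way (781, 2371 and 993 counts, log2 ratio -1.11), as did the Wnt receptor *Fzd6* (910, 5499 and 1039, log2 ratio -2.26) and the Bmp target *Id2* (10128, 37613 and 6092, log2 ratio -2.48, interval -2.52 to -2.45). *Id1* (0.70) and *Id3* (0.65) were not called. Stromal hedgehog targets were few in counts and not called, with 77, 121 and 63 for *Ptch1* and 179, 452 and 285 for *Gli1*.

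Immediate early genes, which respond within minutes to hours of a stimulus, had 11 of 35 members higher and none lower (median 0.95). *Cyr61*, a matrix protein, had 2223, 312 and 6368 counts (log2 ratio 4.49, interval 4.33 to 4.66), *Junb* 10558, 6393 and 22947 (log2 ratio 1.99), *Fos* 2583, 3764 and 8247 (log2 ratio 1.27) and *Egr1* 304, 532 and 1358 (log2 ratio 1.49). *Fosl1* (2, 1 and 39 counts, log2 ratio 5.43, interval 2.86 to 10.77) and *Dusp4* (33, 2 and 69 counts, log2 ratio 5.25, interval 3.34 to 8.32) were rare. *Fosl1* reached the minimum only through the library labelled eKO + rLif. *Jun* was not called and had a log2 ratio of -0.90, and *Atf3* (0.50), *Dusp1* (-0.16) and *Ier3* (0.33) were not called either.

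Chemokine and interleukin genes had 16 of 42 members higher and 4 lower (median 0.57). Of the interleukin-1 family, *Il1a* had 585, 6 and 984 counts (log2 ratio 7.50, interval 6.37 to 8.95), *Il1f9*, an older symbol of the interleukin-36 gamma gene, 110, 0 and 672 (at least 247-fold higher), and *Il1f6*, interleukin-36 alpha, 312, 19 and 81 (log2 ratio 2.23). The neutrophil-attracting chemokines *Cxcl5*, *Cxcl1* and *Cxcl3* were higher at low counts, with 239, 10 and 321 (log2 ratio 5.15, interval 4.25 to 6.22), 45, 19 and 108 (log2 ratio 2.65) and 11, 0 and 40 (at least 14.7-fold higher). *Csf1*, the macrophage growth factor, had 1053, 29 and 311 counts (log2 ratio 3.56, interval 3.01 to 4.17), and the mucosal chemokine *Cxcl17* 18719, 10157 and 39766 (log2 ratio 2.11). Lower were *Csf3*, the granulocyte growth factor (277, 3904 and 990, log2 ratio -1.84), *Ccl11* (12, 127 and 13, log2 ratio -3.15), *Il23a* (434, 298 and 58, log2 ratio -2.22) and *Cxcr4* (46, 170 and 42, log2 ratio -1.88). Summed immune cell markers were 2230.3 and 2676 CPM in the compared libraries, and neutrophil markers *S100a8* and *S100a9* had 53, 31 and 28 and 72, 16 and 1 counts.

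Interferon-stimulated and antigen presentation genes stayed near the middle, with 5 of 49 higher, 3 lower and a median of 0.04. Those called higher included guanylate-binding proteins. *Gbp2*, an interferon-induced GTPase, had 3179, 128 and 11675 counts (log2 ratio 6.65, interval 6.40 to 6.92), its neighbours *Gbp3* and *Gbp7* 1162, 317 and 2020 and 1424, 863 and 2571, and *Oas2* 975, 153 and 1568 (log2 ratio 3.50). *Oasl1* was lower (177, 375 and 58 counts, log2 ratio -2.55), and *Isg15* (-0.59), *Ifit1* (0.01) and *Irf7* (-0.55) were not called.

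Apart from the marker lists, ion and water transport had the lowest median, -0.74, with 13 of 43 members lower and 10 higher. *Slc15a2*, a peptide transporter, had 412, 5769 and 953 counts (log2 ratio -2.46, interval -2.56 to -2.36), *Slc39a2*, a zinc importer, 170, 2222 and 673 (log2 ratio -1.58), *Scnn1b*, a sodium channel subunit, 272, 961 and 274 (log2 ratio -1.67), and the water channel *Aqp11* 3810, 8257 and 3374 (log2 ratio -1.15). *Kcnc4*, a potassium channel, had 13, 326 and 2 counts (log2 ratio -7.21, interval -10.26 to -5.34). Higher were the calcium channel *Trpv6* (7248, 765 and 14117 counts, log2 ratio 4.35, interval 4.24 to 4.45), the proton pump subunit *Atp6v0d2* (20580, 105 and 7332, log2 ratio 6.27, interval 5.99 to 6.56), the anion exchanger *Slc26a6* (1202, 100 and 4115, log2 ratio 5.50, interval 5.22 to 5.81) and *Gabrp*, a chloride channel of the GABA receptor family (1925, 0 and 918, at least 338-fold higher). Calcium handling genes thus lay on both sides, with *Trpv6* higher, *Calb1* lower and *S100g*, the other calbindin, not called (226229, 184121 and 96232 counts, log2 ratio -0.79, interval -0.81 to -0.78).

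Of 53 cell junction and adhesion genes, 10 were higher and 4 lower (median 0.05). Among gap junction genes, *Gjb2* was higher as above and *Gjb5* with 270, 69 and 651 counts (log2 ratio 3.38), while *Gjb1* (0.56), *Gjb6* (-0.86) and *Gja1* (0.56) were not called. The claudins, which set the permeability of tight junctions, differed among themselves. *Cldn10* had 27483, 911 and 67012 counts (log2 ratio 6.34, interval 6.25 to 6.44) and *Cldn1* 835, 852 and 3030 (log2 ratio 1.97), *Cldn8* was lower with 789, 1019 and 225 (log2 ratio -2.04), and the most counted member, *Cldn3*, was not called with 141579, 161952 and 124072 (log2 ratio -0.24, interval -0.25 to -0.23). *Cdh1*, E-cadherin, had 5859, 6638 and 6224 counts (0.05). *Ceacam1*, an adhesion molecule, was lower (628, 3478 and 736, log2 ratio -2.10).

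Mucins and apical glycoproteins had 8 of 28 members higher and 4 lower (median 0.13). *Muc1*, the main surface mucin of this epithelium, had 1555, 1955 and 3922 counts (log2 ratio 1.15, interval 1.07 to 1.22), *Muc4* was given above, and *Muc20* had 181, 15 and 81 (log2 ratio 2.57). *Fut2*, which adds terminal fucose, had 625, 204 and 1129 (log2 ratio 2.61). The glycosyltransferases *Gcnt3* and *B3gnt5* were lower, with 1268, 19153 and 1251 and 303, 1635 and 287 counts (log2 ratios -3.79 and -2.37).

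Protease and inhibitor genes were higher in 15 of 47 cases and lower in 3 (median 0.51). *Prss35* had 871, 1 and 377 counts (log2 ratio 8.70, interval 6.21 to 14.01), the proprotein convertase *Pcsk6* 1229, 7 and 942 (log2 ratio 7.21, interval 6.17 to 8.53), the metalloproteinase inhibitor *Timp1* 612, 128 and 2112 (log2 ratio 4.19, interval 3.93 to 4.45), and *Prss22* 856, 157 and 1572 (log2 ratio 3.47). *Ctsb*, the lysosomal protease cathepsin B, had the largest gain in CPM of all genes, with 1922 and 10226 CPM in the libraries labelled eKO and eKO + rLif (log2 ratio 2.41). *Timp3* (1411, 5749 and 1148 counts, log2 ratio -2.18), *Mmp15* (266, 749 and 187, log2 ratio -1.86) and *Dpp4* (1374, 930 and 278, log2 ratio -1.60) were lower, so the inhibitors *Timp1* and *Timp3* differed in opposite directions.

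Glutathione and antioxidant enzymes were also split, with 8 of 49 higher and 11 lower (median -0.09). *Gpx2*, an epithelial glutathione peroxidase, had 75012, 17161 and 207942 counts (log2 ratio 3.74, interval 3.72 to 3.76) and heme oxygenase *Hmox1* 1416, 357 and 1947 (log2 ratio 2.59). The mu class transferases were mostly lower: *Gstm1* had 50244, 325543 and 76881 counts (log2 ratio -1.94, interval -1.95 to -1.93), *Gstm2* 20765, 157859 and 31959 (log2 ratio -2.16, interval -2.18 to -2.15) and *Gstm7* 1631, 8193 and 2113 (log2 ratio -1.81), whereas *Gstm5* was higher with 8751, 1569 and 12793 (log2 ratio 3.17). These copies are similar in sequence and reads could be split between them. *Txnip*, a thioredoxin inhibitor, was lower (3892, 3843 and 849 counts, log2 ratio -2.04), and *Gpx1* (-0.03), *Prdx1* (0.28) and *Nqo1* (-1.20) were not called.

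In the glycolysis and hypoxia list, 7 of 36 were higher and 7 lower (median 0.15). *Aldoc*, an aldolase, had 1041, 40 and 2671 counts (log2 ratio 6.20, interval 5.75 to 6.69) and the stress gene *Ndrg1* 22375, 1433 and 9431 (log2 ratio 2.86). The glucose transporter *Slc2a3* (1714, 10057 and 3068 counts, log2 ratio -1.57), hexokinase *Hk2* (475, 2815 and 1024, log2 ratio -1.32) and *Pfkfb3* (1281, 7326 and 2968, log2 ratio -1.16) were lower. *Slc2a1*, *Pgk1* and *Vegfa*, which hypoxia raises in many cells, were not called (-0.12, -0.05 and -0.07). Genes of cholesterol and fatty acid synthesis had 5 of 40 higher and 1 lower (median 0.39), led by *Elovl7* (1445, 81 and 960 counts, log2 ratio 3.71) and *Me1* (1302, 98 and 1060, log2 ratio 3.58). In the secretory pathway list, *Xbp1*, a transcription factor of the unfolded protein response, was among the largest gains in CPM of all genes, with 74687, 10947 and 123264 counts (log2 ratio 3.63, interval 3.61 to 3.66), and *Trib3* had 742, 47 and 903 (log2 ratio 4.41). The other 34 of 36 members were not called, among them the chaperones *Hspa5* (30386, 17697 and 17229 counts, 0.10) and *Hsp90b1* (15606, 19098 and 9811, -0.82).

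Outside the lists, the called genes with the farthest intervals included *8430408G22Rik*, named Depp1 in RefSeq, on chromosome 6 between 116650684 and 116652847, with 100224, 47 and 35376 counts (log2 ratio 9.70, interval 9.29 to 10.14). *Atp13a4*, a cation-transporting ATPase, had 230, 1 and 2248 counts (log2 ratio 11.28, interval 8.80 to 16.58) and *Tuba8*, an alpha-tubulin, 927, 4 and 2585 (log2 ratio 9.48, interval 8.12 to 11.35). Among the largest gains in CPM were also the interferon-inducible membrane protein *Ifitm1* (77253, 25437 and 176335 counts, log2 ratio 2.93), the tetraspanin-like *Tm4sf1* (87205, 19319 and 124544, log2 ratio 2.83), the adaptor *Sdcbp* (69395, 26974 and 116197, log2 ratio 2.25), the stress protein *Nupr1* (12110, 1160 and 72411, log2 ratio 6.11) and *Sat1*, which acetylates polyamines (48238, 16271 and 83639, log2 ratio 2.50).

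On the lower side, *H60c*, a ligand of the natural killer receptor NKG2D, had 146, 2629 and 76 counts (log2 ratio -4.97, interval -5.32 to -4.64), and *Cyp2a5*, a cytochrome P450 with close paralogs, 54, 168 and 1 (log2 ratio -7.25, interval -12.56 to -4.75). *Fam124b* had 18, 142 and 0 counts (at least 42.9-fold lower), *Ppp1r1b*, a phosphatase inhibitor, 31, 112 and 0 (at least 33.8-fold lower), *Klhdc7a* 15, 101 and 0 (at least 30.5-fold lower) and the matrix protein gene *Prelp* 45, 95 and 0 (at least 28.7-fold lower). *Gm19461* (2, 176 and 0 counts, at least 53.2-fold lower) is annotated as antisense, and its exons overlap those of no other gene in the table. Without a stated strand setting, the strand of its reads is not known. The largest losses in CPM were in *Tmsb4x*, which sequesters actin (115073, 460097 and 178524 counts, log2 ratio -1.22, interval -1.23 to -1.22), *Gstm1*, *Calb1*, *Gstm2* and *Fxyd4*, followed by the lipogenic gene *Thrsp* (8072, 95644 and 13017, log2 ratio -2.74, interval -2.76 to -2.71), the simple-epithelium keratin *Krt19* (8537, 57150 and 9081, log2 ratio -2.51, interval -2.54 to -2.48), the Bmp pseudoreceptor *Bambi* (8933, 52469 and 7893, log2 ratio -2.59), *Pdzk1ip1* (18437, 58229 and 18109, log2 ratio -1.54) and the homeodomain protein *Hopx* (4350, 45824 and 7244, log2 ratio -2.52). For *Krt19* and *Thrsp* the libraries labelled control and eKO + rLif were both far under the one labelled eKO. *Krt8* was lower as well (21158, 49601 and 15790 counts, log2 ratio -1.51), whereas *Krt18* was not called (38456, 39937 and 34938, -0.05).

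Per kilobase of exon, which allows levels of different genes to be compared, the highest of the genes called higher in the library labelled eKO + rLif were *Ifitm1* at 8063 CPM per kb, *Gpx2* at 7485 and *Sprr2f* at 5977. Their levels per kb in the library labelled eKO were 1054, 560.0 and 233.8. The highest of the genes called lower in the library labelled eKO were *Tmsb4x* at 23912 CPM per kb, *Gstm1* at 8760.1 and *Fxyd4* at 8555, which stood at 10234, 2282 and 2053.5 in the library labelled eKO + rLif.

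Some called genes lay side by side. In the order of analysed genes along the chromosomes there were 80 runs of 3 or more neighbours called in the same direction, 48 higher and 32 lower, with 262 of the 2456 called genes in all. The longest held 6 genes, *Sprr2e*, *Sprr2f*, *Sprr2g*, *Sprr1a*, *Ivl* and *Lce3c* on chromosome 3 between 92352143 and 92945730. Receptor genes formed another, with *Osmr*, *Lifr* and *Egflam* on chromosome 15 between 6813577 and 7398304, as did the EGF family ligands *Ereg*, *Areg* and *Btc* with *Parm1* on chromosome 5 between 91074617 and 91623996. *Lrat*, *Fgg* and *Fga* were neighbours on chromosome 3, *Fetub*, *Kng2* and *Kng1* on chromosome 16, and 4 genes of the interleukin-36 group (*Il1f8*, *Il1f9*, *Il1f6* and *Il1f5*) on chromosome 2. *Ifitm1*, *Ifitm3* and *Ifitm6* with *B4galnt4* lay on chromosome 7.

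Among the 32 runs of lower genes, some held enzymes of 1 family. On chromosome 3, *Gstm7*, *Gstm6*, *Gstm3*, *Gstm2* and *Gstm1* were lower between 107926334 and 108017973, next to a run of higher genes that ended in *Gstm5*. On chromosome 13, 4 aldo-keto reductases (*Akr1c13*, *Akr1c19*, *Akr1c12* and *Akr1c21*) and the pseudogene *Marcksl1-ps4* were lower, and their counts were 71, 997 and 297, 209, 1670 and 520, 7, 46 and 8 and 0, 22 and 2 for the reductases. The alcohol dehydrogenases *Adh7* (82, 24 and 0 counts, at least 7.25-fold lower), *Adh1* (146, 562 and 166, log2 ratio -1.62) and *Adh6a* (8, 73 and 7, log2 ratio -3.24), the carboxylesterases *Ces1d*, *Ces1e* and *Ces1f* and the cytochromes *Cyp2b19*, *Cyp2a5* and *Cyp2f2* formed further runs. Members of such clusters are similar copies between which reads could be split, so their single values are uncertain.

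**Figure D4:**
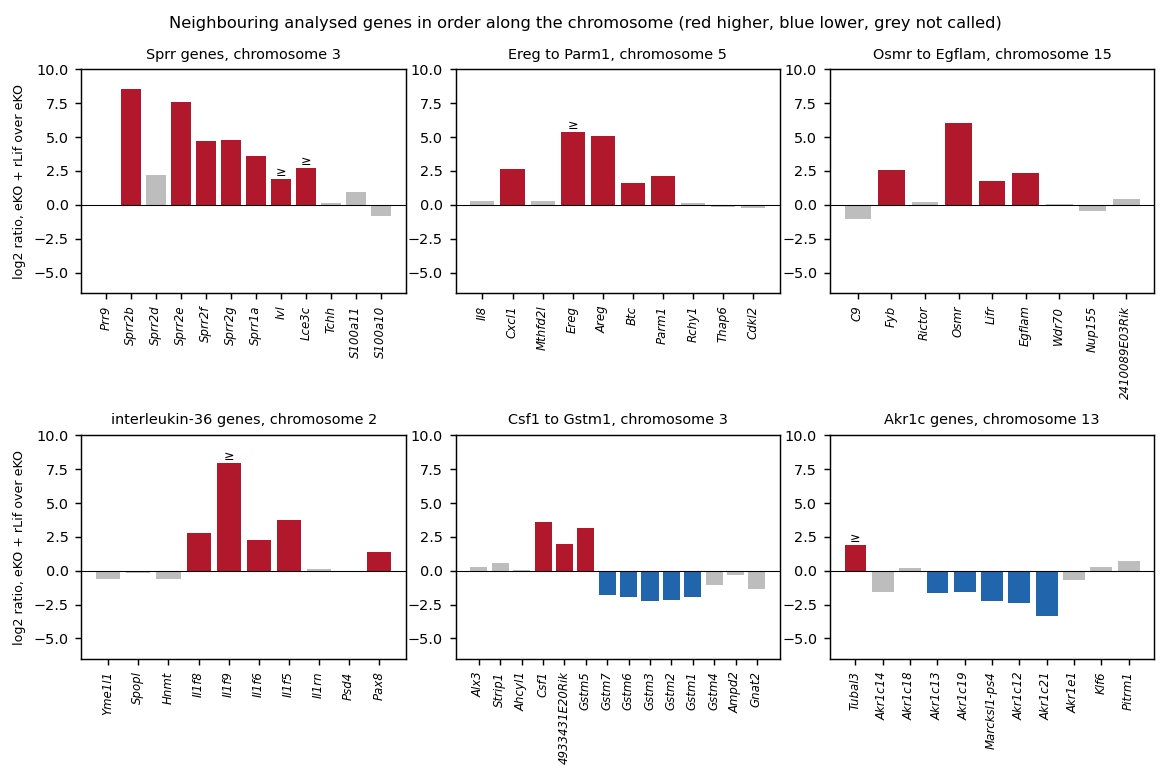
Log2 ratio (eKO + rLif over eKO) of analysed genes in their order along 6 chromosome stretches, with 3 genes on either side of each run; red bars were called higher, blue lower and grey not called, the sign at a bar's tip marks a bound for 0 counts, and no bar is drawn where neither library exceeded 3 counts. Higher bars stand together for the Sprr, EGF ligand, receptor and interleukin-36 stretches, and the Gstm stretch changes sign between *Gstm5* and *Gstm7*.

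The same comparison in blastocysts flushed from uteri of the same groups shares no library with the luminal one, although the animals overlap. In blastocysts 557 of 14873 genes (3.75%) were called, 136 higher (0.914%) and 421 lower (2.83%). Of the 1236 genes higher in the luminal layer, 952 were analysed in blastocysts, where 10 were higher and 58 lower and their median log2 ratio was -0.10. Of the 1220 lower in the luminal layer, 882 were analysed in blastocysts, with 15 higher and 41 lower and a median of -0.09. Genes higher in both tissues were 0.809% of the luminal and 7.35% of the blastocyst list, and genes lower in both were 3.36% and 9.74%. These shares also count genes not analysed in the other tissue, so they cannot be set against the shares called over all genes. Of the 136 genes higher in blastocysts, 87 were analysed in the luminal layer, where 10 were higher. Of the 421 lower in blastocysts, 368 were analysed there, and 41 were lower.

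For the pathway genes the blastocyst values stood as follows. *Socs3* had 4031, 5440 and 3248 counts in the blastocyst libraries labelled control, eKO and eKO + rLif (log2 ratio -0.74, not called), *Stat3* 3699, 4651 and 4870 (0.07) and *Osmr* 2, 0 and 2. *Calb1*, lower in the luminal layer, was also lower in blastocysts, with 49, 201 and 18 counts (log2 ratio -3.47), and so were *Thrsp* (18, 72 and 6) and *Hopx* (80, 87 and 23). All of these are far more abundant in the luminal layer, and the part of uterine RNA in their blastocyst counts was not tested. *Kng1*, at 0 counts in the luminal library labelled eKO, had 20, 8 and 40 counts in blastocysts and was called higher there too.

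**Figure D5:**
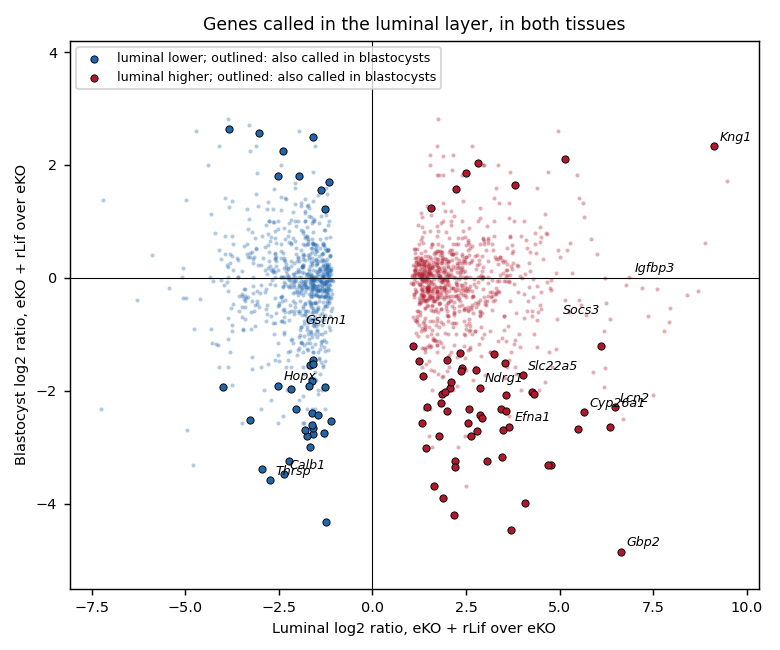
Log2 ratio (eKO + rLif over eKO) in blastocysts against that in the luminal layer for genes called in the luminal layer with a ratio in blastocysts; outlined points were also called in blastocysts. Most points lie near 0 on the blastocyst axis, and the outlined genes higher in the luminal layer sit mostly below it.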

How the data were processed

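Luminal layers were microdissected, RNA of 3 samples was pooled per group, and the authors made SMART-seq v4 libraries, aligned paired-end reads to GRCm38/mm10 with HISAT2 and counted them per gene with featureCounts (Subread 2.0.0). Tool names come from the submitters' processing notes and the study's methods. The deposited values were raw read counts per gene, all whole and summing to another total in every library, although the methods call them RPKM. An exon length per gene was given beside them. Annotation release, strand and multimapping settings are not given in the sources used here. Total luminal counts were 23850565 (control), 28460465 (eKO) and 27809527 (eKO + rLif). Table facts were 2814 of 23420 genes with overlapping exons, 27 rows with symbols turned into dates and 0 mitochondrial rows.

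From these counts, TMM factors (edgeR 4.0.16, R 4.3.3) of 1.06, 1.01 and 0.936 scaled the libraries, and ratios with exact Clopper-Pearson 95% intervals were computed in scipy 1.17.1. Intervals cover counting error only, since PCR reads without molecular identifiers are not independent molecules. With 1 library per group no test was run. A gene was called when its interval lay wholly beyond a log2 ratio of 1, and the floor for 0 counts was 3. The calling was also run on simulated counts with planted changes and counting error only. Those counts hold no spread between pools, so the run does not measure false calls in these data. Alternatives were other scalings, count minimums and limits, log2 CPM with a pseudocount of 2, and edgeR's exact test with assumed dispersions of 0.1 and 0.4.

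The genes named are the 10 higher and 10 lower with the farthest interval bound, the 10 largest gains and losses in CPM, members of 38 gene lists and of runs of neighbours, and *Lif*. The comparison, the lists and the genes looked up for promoters were chosen with earlier results of these data known. Promoter sequences and current symbols came from RefSeq (GRCm38.p6), where 15601 of 15694 symbols matched, and gene types from GENCODE M21. Motifs other than the Stat palindromes were not reported, because too few called genes had a promoter sequence. Values of some list members are not reported here.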

Additional observations from a re-analysis of the deposited data

Results flagged for a closer look

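Some genes were called in opposite directions in the luminal layer and in blastocysts under the same comparison of the libraries labelled eKO + rLif and eKO. Of 952 genes higher in the luminal layer and analysed in blastocysts, 58 were lower in blastocysts. Of 882 lower in the luminal layer and analysed in blastocysts, 15 were higher in blastocysts. Over all 14873 genes analysed in blastocysts, 421 (2.83%) were called lower and 136 (0.914%) higher, so lower calls were the more common there in general. The difference between the tissues was not tested, since each tissue has 1 library per group. Ranked by the smaller of the 2 interval bounds, the first was *Gbp2*, with 128 and 11675 counts in the luminal libraries labelled eKO and eKO + rLif and 58 and 2 in the blastocyst libraries. *Efna1*, an ephrin ligand, had 866 and 9923 luminal counts (log2 ratio 3.66) and 2567 and 412 blastocyst counts (log2 ratio -2.63). *Ndrg1* had 1433 and 9431 luminal counts and 30189 and 7787 in blastocysts (log2 ratios 2.86 and -1.95). *Il1b* (105 and 434 luminal, 222 and 12 blastocyst counts) and the carnitine transporter *Slc22a5* (490 and 7149 luminal, 11214 and 3377 blastocyst counts) were of the same kind. *Cyp26a1*, *Lcn2* and *Hbegf* were also among the 58, with 47 and 9, 64 and 13, and 283 and 78 blastocyst counts. In the opposite group, *Dleu7* had 577 and 132 luminal counts and 0 and 16 in blastocysts.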

How the results depend on the processing

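The number of called genes, 2456 (1236 higher, 1220 lower), stayed within 1.5 times its value with median-of-ratios or total-count scaling, TMM from the compared libraries alone, no minimum or a minimum of 50 counts, and without genes with overlapping exons. Scaling by total counts shifted every log2 ratio by -0.108 (1125 higher, 1417 lower). With the interval wholly beyond 0 there were 11212 genes (5649 higher, 5563 lower) and with it beyond a log2 ratio of 2 there were 750 (472 higher, 278 lower). A difference in log2(CPM + 2) beyond 1, with no interval, gave 782 lower genes. The edgeR exact test, also requiring an adjusted p under 0.05 and a log2 fold change beyond 1, called 1109 (635 higher, 474 lower) with an assumed dispersion of 0.1 and 36 (35 higher, 1 lower) with 0.4, so the number rests on a spread between pools that these libraries do not give. Without the genes that had at least 500 counts in every blastocyst library, an alternative chosen after the data were seen, 1973 of 9526 were called. Of 38 lists, 37 kept a number of called members within 1.5 times under each of the other 2 scalings, and 8 did with a limit of 2. No named and called gene with counts in both libraries changed sign under another scaling or on the log2(CPM + 2) scale. No paired analysis was possible because each group is 1 library with no replicate number. No replicate could be left out for the same reason. Depth limits the rare genes: 212 of the higher and 224 of the lower genes had 0 counts in 1 library, and their folds are bounds.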

Other observations

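None of 35 ribosome biogenesis and Myc target genes was called, but 30 of them had a log2 ratio above 0 and their median was 0.36, against -0.01 over all genes. *Ncl* had 8250, 6447 and 7197 counts (log2 ratio 0.30), *Nop56* 3420, 3616 and 5093 (0.64) and *Mybbp1a* 786, 492 and 868 (0.96). Of 39 cell cycle genes, 2 were higher (5.13%) and 3 lower (7.69%), near the 7.88% and 7.77% of all analysed genes (median 0.10). Topoisomerase *Top2a* was higher with 1115, 532 and 2091 counts (log2 ratio 2.12, interval 1.98 to 2.26), as was the cell cycle inhibitor *Cdkn2b* with 741, 74 and 259 (log2 ratio 1.95). The mitotic cyclins *Ccnb1* (494, 328 and 73 counts, log2 ratio -2.03, interval -2.41 to -1.66) and *Ccnb2* (392, 293 and 72, log2 ratio -1.88, interval -2.28 to -1.51) were lower, and *Mki67* (562, 354 and 224, log2 ratio -0.52) and *Cdk1* (778, 364 and 491, 0.57) were not called.

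Of 27 amino acid transport and stress genes, 3 were higher (11.1%) and 2 lower (7.41%), with a median log2 ratio of 0.09. These shares were near the 7.88% and 7.77% of all analysed genes. *Slc6a14*, a broad amino acid importer, had 1205, 1858 and 4423 counts (log2 ratio 1.39), *Chac1*, which cleaves glutathione, 124, 56 and 199 (log2 ratio 1.97), and *Sesn2*, a leucine sensor, was lower with 620, 810 and 156 (log2 ratio -2.23).

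Some genes with counts in the library labelled control had 0 in both compared libraries, and these have no ratio. Among list members these were *Upk3b*, a uroplakin (145, 0 and 0 counts), *Igfbp1* (95, 0 and 0) and the sodium channel subunit *Scnn1g* (45, 0 and 0). They were named after their values were seen.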
